A study of Saccharomyces cerevisiae with 10 samples.

Results

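ORC binding was compared between WT and Orc4-IHΔ budding yeast as 2 lists of ChIP-seq peaks, 1 per strain. ORC was recovered through MYC-tagged Orc6 from cells held in G2/M. Every line of both lists was kept, and lines that carry the same peak name were joined into 1 peak, from the first start to the last end. The WT list then held 587 peaks and the mutant list 2140, together 2727 of the 7664 peaks in the 4 lists of the series that were analysed. The other 2 lists are ATAC-seq peaks, which mark DNA open to a transposase, and they serve here only as a reference for open chromatin. All 4 lists come from cultures treated with the microtubule inhibitor benomyl at 20 µg/ml for about 3 h.

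Both ORC strains were of the W303-1a background and of mating type a, with the markers can1-100, trp1-1, ade2-1, his3-11,15 and ura3-1 and the double leu2 allele that carries mutations 3 and 112. In both, the chromosomal ORC4 gene stood behind the GALS promoter (GALS-ORC4-kanMX4) and Orc6 carried the MYC tag (ORC6-MYC-hphNT1). WT cells (strain CL_WT_O6_MYC) had in addition ura3-1::ORC4-URA3, and mutant cells (CL_MUT_O6_MYC) had ura3-1::orc4-IH_delta-URA3. According to the labels, each extra copy was expressed from the native ORC4 promoter. Cells were moved from galactose to glucose medium for at least 18 h, so that the GALS copy was shut off and the extra copy supplied Orc4. The remaining GALS-driven Orc4 is not measured in the lists, and each genotype is represented by 1 strain, so genotype and strain cannot be told apart. The ChIP-seq design has 2 libraries per strain but 1 combined list, so there is no replicate spread and no test between the strains.

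ORC is the protein complex that marks replication origins and loads the MCM helicase onto DNA in G1. In Saccharomyces cerevisiae it recognizes a T-rich consensus, the ACS, within short origin sequences called ARSs. Orc4 contributes an insertion helix (IH) that reaches into the major groove at the ACS, a helix that human Orc4 lacks. The comparison asks how the landscape of ORC sites along the chromosomes differs once this helix is deleted.

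The peak names bear on every value given here. All peak names in a list carry the tag of library 2 of that strain, so that the fold enrichment of a peak, the linear ratio of its signal to the local background given by the peak caller, belongs to that library as far as the names tell. The names are also numbered, and the numbers rise along the chromosomes without a break in order. They reach 1027 in WT and 3084 in the mutant, of which 587 (57.2%) and 2140 (69.4%) are in the lists. The 440 WT and 944 mutant numbers that are missing read as calls in that library that the combined list leaves out, and a stretch without a listed peak may therefore hold such calls. Whether they were left out for lack of a match in the other library or because they lay at RNA genes was not tested. Listed peaks start at a −log10 q of 1.31 in WT and 1.32 in the mutant, just past a q value of 0.05. The depth behind the lists is unknown.

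The mutant list held more ORC peaks than the WT list on every nuclear chromosome. On the 16 chromosomes there were 584 WT and 2137 mutant peaks, 3.66 times as many, or 4.85 and 17.8 per 100 kb. The covered sequence differed less, 294691 bp in WT and 721068 bp in the mutant, a ratio of 2.45, because a WT peak covered 505 bp on average and a mutant peak 337 bp. These lengths amount to 2.45% and 5.99% of the summed extent of the chromosomes.

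Relative to its level, peak density varied more between chromosomes in WT than in the mutant, while the ranges in peaks per 100 kb were similarly wide. Counts per chromosome ran from 12 to 66 peaks in WT and from 41 to 261 in the mutant. The part of counting error in the wider relative range of WT was not tested. In WT, chromosome XV was the sparsest at 3.48 peaks per 100 kb and chromosome VI the densest at 8.88. Mutant density ranged from 14.9 on chromosome XIII to 20.2 on chromosome XVI, and the ranges of the strains did not overlap. Chromosome VI had 24 WT and 48 mutant peaks, the lowest ratio (2.00). Chromosome XV had 38 WT and 215 mutant peaks, the highest ratio (5.66). The chromosome poorest in WT peaks per length was thus among the denser ones in the mutant, at 19.7 per 100 kb.

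**Figure D1:**
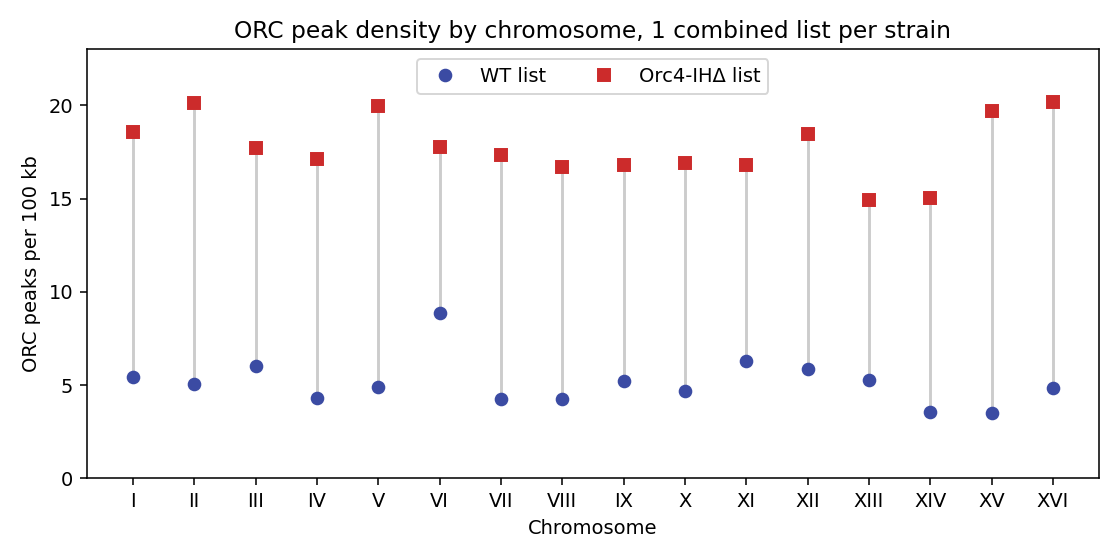
ORC peaks per 100 kb on each of the 16 nuclear chromosomes, with a circle for the WT list and a square for the Orc4-IHΔ list joined by a grey line. The highest WT value (8.88, chromosome VI) lies below the lowest mutant value (14.9, chromosome XIII).

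WT peaks had the larger median width and the larger spread between quartiles. The median width was 359 bp in WT (quartiles 193 and 730 bp, range 7 to 2836 bp) and 245 bp in the mutant (quartiles 186 and 388 bp, range 4 to 3002 bp). Peaks from 500 to under 1000 bp made up 27.6% of the WT and 12.6% of the mutant list, and peaks of 1000 bp or more 12.5% and 3.93%. In the mutant, the classes from 100 to under 200 bp and from 200 to under 300 bp held 30.3% and 32.7% of peaks. In WT they held 23.8% and 15.6%. Fragments under 100 bp were few, 16 in WT and 14 in the mutant. In all 29 WT and 77 mutant peaks that came in pieces, the pieces carried the same fold enrichment. The listed widths may therefore differ from those of the called peaks to which the fold enrichments belong, which was not tested. The direction of the width difference was not the same under every choice of peaks. Among the 584 mutant peaks of highest −log10 q, as many as the WT list holds, the median width was 418.5 bp, above that of the WT list, and they covered 315564 bp. This choice changes the number and the strength of the mutant peaks at once. With both lists limited to peaks at or above their own median −log10 q, WT peaks were the wider ones, at 696.5 against 329.5 bp.

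The widest peaks lay partly at the same places in both lists. The widest WT peak, on chromosome X between 440603 and 443438, consists of 4 pieces and has a fold enrichment of 9.46. The second widest WT peak, on chromosome VII between 479893 and 482661, almost coincides with the second widest mutant peak, between 479865 and 482540. Their fold enrichments are low, 3.34 in WT and 2.97 in the mutant. The widest mutant peak, on chromosome XII between 232001 and 235002 (fold enrichment 6.69), covers most of the fourth widest WT peak, between 231899 and 234075 (3.94). In contrast, the fifth widest mutant peak, on chromosome XI between 229539 and 231417 (4.48), lies 9913 bp from the nearest WT peak. The remaining widest peaks span 2624 bp (chromosome XII) and 2064 bp (chromosome XIV) in WT, and 2346 bp (chromosome XII) and 1890 bp (chromosome XIV) in the mutant.

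The fold enrichments of the lists had similar medians and different upper tails. The median was 2.88 in WT and 3.12 in the mutant, while the upper quartiles were 5.55 and 3.88 and the ninetieth percentiles 7.90 and 4.70. A fold enrichment of 6 or more was reached by 128 WT peaks (21.9%), which held 40.0% of the covered WT sequence. In the mutant 49 peaks (2.29%) reached it, with 4.82% of the covered sequence. At the lower end, 113 WT peaks (19.3%) and 107 mutant peaks (5.01%) had a value under 2. Mutant peaks instead gathered between 2 and 4, with 885 peaks from 2 to 3 and 668 from 3 to 4. Stronger peaks were wider in both lists, with a Spearman correlation across peaks of 0.71 in WT and 0.58 in the mutant. Peaks of a list share a library and are not independent. Fold enrichments were set by calls made separately for each strain, so that a value of 6 need not mean the same amount of bound ORC in both.

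**Figure D2:**
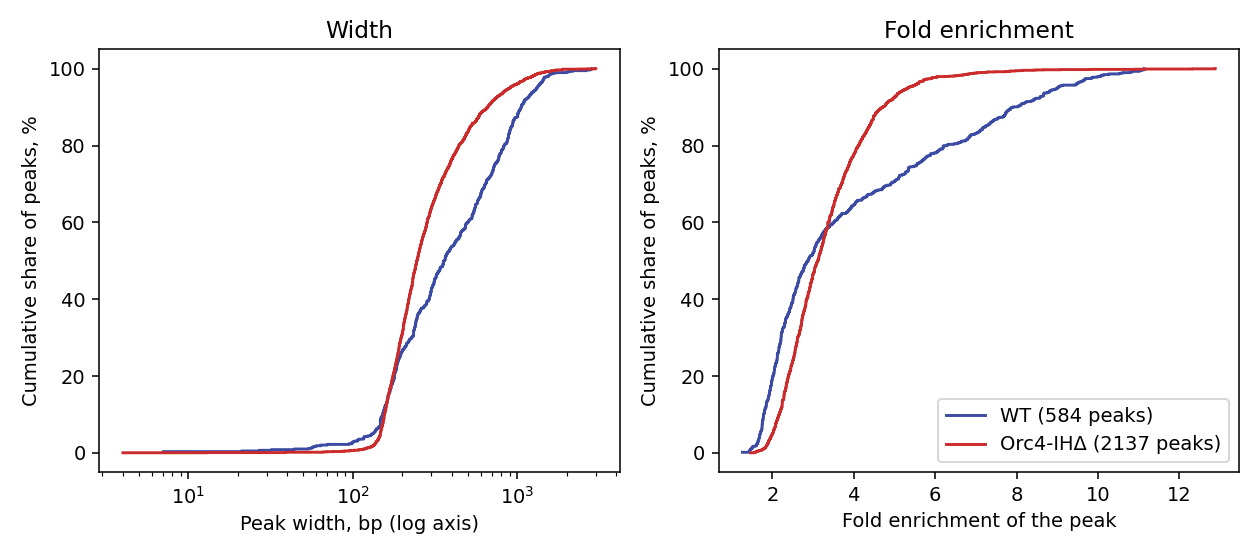
Cumulative share of nuclear ORC peaks by width in bp (left, log axis) and by fold enrichment (right) for the WT list (584 peaks) and the Orc4-IHΔ list (2137 peaks). The WT curve for width runs to the right of the mutant curve above about the lower quartile (193 and 186 bp). The curves for fold enrichment cross near the medians (2.88 and 3.12). The upper quartile is higher in WT (5.55 against 3.88), while the highest single value is in the mutant (12.9 against 11.1).

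The strongest peaks of the WT list differed in what they met in the mutant list. The highest WT peak (fold enrichment 11.1) lies on chromosome III between 14116 and 15702. Within it stands the third highest mutant peak (11.2), between 14448 and 15033. The second, on chromosome IV between 702238 and 704225 (11.1), meets 2 mutant peaks, one of them with a value of 6.81. The third, on chromosome XI between 641661 and 642881 (11.1), meets a mutant peak of only 166 bp between 642424 and 642589, with a value of 3.41. The fourth, on chromosome V between 498454 and 499560 (11.0), meets none, and the nearest mutant peak starts 4285 bp away with a value of 2.39. The fifth, on chromosome V between 287075 and 287956 (10.8), encloses the fifth highest mutant peak, between 287176 and 287777 (9.79). Of the 5 strongest WT peaks, 4 thus met a mutant peak, with values from 3.41 to 11.2 among those whose value is given here. Over the whole list, 46.7% of WT peaks met one, and among WT peaks of 1000 bp or more 72.6% did.

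All 5 of the strongest mutant peaks met a WT peak. The highest lies on chromosome VI between 255262 and 256695 with a fold enrichment of 12.9, beside 8.58 for the WT peak it meets. The second, on chromosome IV between 554976 and 556071 (12.3), and the fourth, on chromosome XVI between 694978 and 695835 (10.9), also exceed their WT counterparts, at 8.94 and 7.70. The top of the mutant list is in this respect unlike the list as a whole, of which 302 of 2137 peaks (14.1%, 95% Wilson interval 12.7% to 15.7%) met a WT peak. Wilson intervals cover counting error only.

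ORC peaks stood farther apart in the WT list. The gap from the end of a peak to the start of the next had a median of 11392 bp in WT (568 gaps, quartiles 2876 and 30115 bp) and 2950 bp in the mutant (2121 gaps, quartiles 1204 and 6806 bp). Gaps of 20 kb or more numbered 214 in WT and 71 in the mutant, and they took up 75.8% and 17.5% of the chromosomes. The most frequent class was from 20 to under 50 kb in WT, with 156 gaps (27.5%), and from 2000 to under 5000 bp in the mutant, with 604 gaps (28.5%). The difference in spacing was smaller when the mutant list was limited to as many peaks as the WT list. The 584 mutant peaks of highest −log10 q had a median gap of 10514.5 bp and a longest stretch without a peak of 223718 bp, which is longer than any in WT. With both lists limited to peaks at or above their own median −log10 q, the median gaps were 34682 bp in WT and 5858 bp in the mutant.

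Relative to its own mean, the spacing was uneven in both lists. The mean gap was 19966 bp in WT and 5180 bp in the mutant, each about 1.75 times the median (1.75 and 1.76). The coefficient of variation was 1.10 in WT and 1.24 in the mutant, and gaps over 3 times the mean made up 6.69% and 6.79%. The lists parted at the short end, where 124 WT gaps (21.8%) and 263 mutant gaps (12.4%) were under 10% of the mean of their list. This limit is shorter in bp in the mutant, while the shortest gap was 79 bp in both lists. The part of such a floor in the difference was not tested. The WT gaps include 83 of under 500 bp (14.6%), followed by only 19 from 500 to under 1000 bp and 22 from 1000 to under 2000 bp. The mutant classes of these lengths held 254, 211 and 342 gaps. The class from 1000 to under 2000 bp is wider than the shorter ones, so its counts are not comparable with theirs per length.

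**Figure D3:**
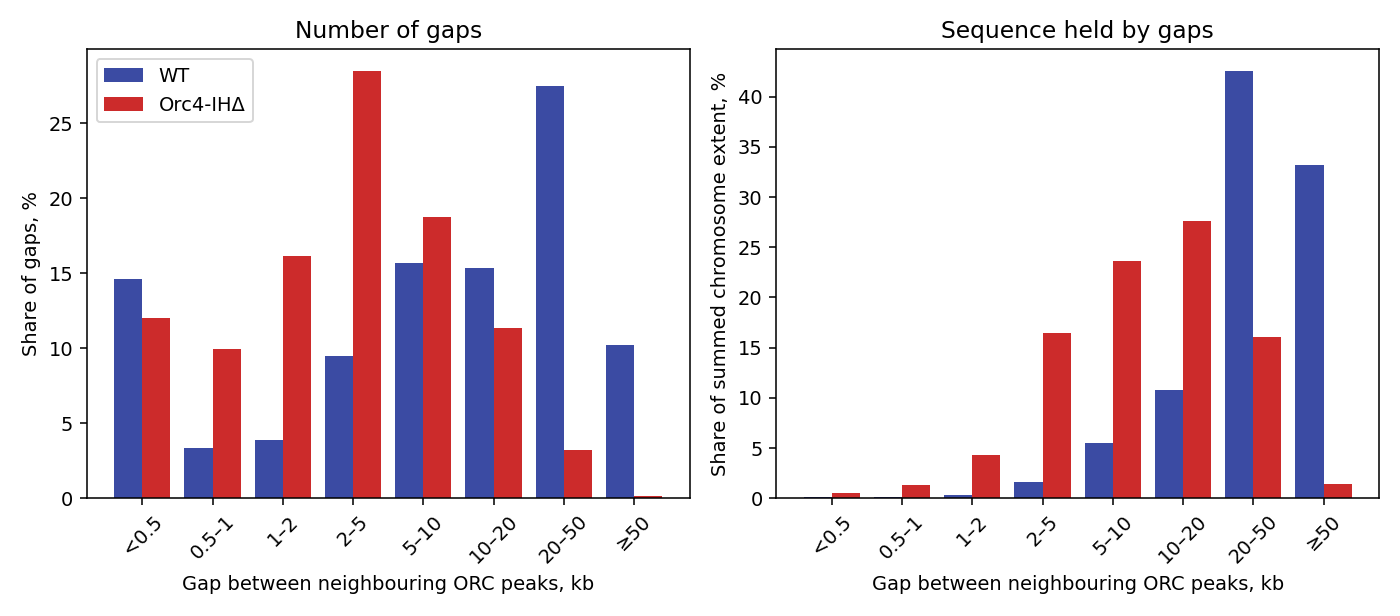
Gaps between neighbouring ORC peaks by length class in kb, as a share of the number of gaps (left) and of the summed chromosome extent (right), for WT and Orc4-IHΔ. Gaps of 20 kb or more take up 75.8% of the extent in WT and 17.5% in the mutant.

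Short gaps reflect runs of neighbouring peaks. When peaks at most 1000 bp apart were counted as a run, the WT list formed 482 runs, of which 400 were lone peaks, 69 were pairs, 8 held 3 peaks and 5 held 4 or more. The mutant list formed 1672 runs, with 1332 lone peaks, 255 pairs, 59 runs of 3 and 26 of 4 or more. Runs of 3 or more peaks held 7.88% of WT and 13.8% of mutant peaks. The same limit of 1000 bp was used for both lists, although their mean gaps were 19966 and 5180 bp. The shares expected from peak density alone were not computed, so these shares do not compare clustering between the lists. The longest in number of peaks had 5 in WT, on chromosome II between 589396 and 593087 and on chromosome XII between 951765 and 953526. The latter contains only weak peaks (fold enrichment 1.44 to 2.02) and no mutant peak. The mutant list had 4 runs of 6 peaks, and the most extended of these, on chromosome XIV between 498487 and 503512, spans 5026 bp with values of 2.05 to 5.24. These runs were picked out after their values were seen.

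Long stretches without a WT peak were populated in the mutant. Peaks and open regions inside a stretch were counted by their midpoints. The longest, 119072 bp on chromosome XV between 908886 and 1027957, held 27 mutant peaks with a median fold enrichment of 3.52, and the highest at 7.83. It also held 25 open regions, counting the ATAC-seq peaks of both strains merged. The second, 107722 bp on chromosome X between 229124 and 336845, held 14 mutant peaks, among them one with a value of 9.10. The third, 107152 bp on chromosome IV between 806458 and 913609, held 18. The fourth, 106724 bp on chromosome XVI between 173947 and 280670, held 25, and the fifth, 100613 bp on chromosome IV between 1058581 and 1159193, held 11. Mutant peaks thus stood at 10.9 to 23.4 per 100 kb in these stretches, beside 17.8 over all chromosomes. Open regions stood at 14.9 to 21.0 per 100 kb in the same stretches, beside 22.5 over all chromosomes. The numbering of the WT names skips 5, 1, 1, 4 and 4 numbers across them, and what these numbers stood for was not tested.

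The longest stretches without a mutant peak were shorter and all held open regions. On chromosome XI, the 59855 bp between 520692 and 580546 held 1 WT peak, with a fold enrichment of 2.3, and 15 open regions, or 25.1 per 100 kb beside 22.5 over all chromosomes. On chromosome II, the 59339 bp between 620793 and 680131 held 2 WT peaks (3.41 and 3.60) and 9 open regions. On chromosome IV, the 55888 bp between 1289305 and 1345192 held a WT peak with a value of 7.57 and 11 open regions. On chromosome VIII, the 47801 bp between 122721 and 170521 held 4 WT peaks, the strongest at 6.84, and 11 open regions. On chromosome III, the 45495 bp between 246838 and 292332 held no WT midpoint, although a WT peak (3.56) starts at 292315. This stretch held 5 open regions, the lowest density of the 5 stretches (11.0 per 100 kb). The mutant names skip 3, 5, 6, 3 and 2 numbers across these stretches.

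Mutant peaks lay in many gaps of the WT list. Of the 568 gaps between neighbouring WT peaks, 413 (72.7%) held the midpoint of a mutant peak, 84 held exactly 1 and 34 held 10 or more. With only the 584 mutant peaks of highest −log10 q, 46.1% of the gaps held one. The 1868 mutant peaks in these gaps are 87.4% of the list, while the gaps make up 94.3% of the chromosomes. All 58 WT gaps of 50 kb or more held a mutant peak, as did 152 of the 156 gaps from 20 to under 50 kb. The most mutant peaks stood in the gaps on chromosome XV from 908886 (27), on chromosome XVI from 173947 (25) and on chromosome XV between 348467 and 437123 (21 within 88657 bp). Per length, mutant peaks were sparsest in WT gaps of under 500 bp, at 10.6 per 100 kb, from only 2 peaks in 83 gaps. Their density was 49.2 in gaps from 500 to under 1000 bp (7 peaks) and 36.1 from 1000 to under 2000 bp (12 peaks), and it was lower in each longer class, from 23.6 at 2000 to under 5000 bp down to 14.5 at 50 kb or more. Open regions stood at 5.31, 35.2 and 33.1 per 100 kb in the 3 shortest classes and went from 29.4 to 20.0 over the same longer ones. The part of open chromatin in the order of the mutant peaks was not tested.

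WT gaps without a mutant peak were short, with a median of 433 bp against 20426 bp for the others. The longest was 27483 bp on chromosome XI between 389161 and 416643, with 4 open regions. In the other direction, 316 of 2121 gaps between mutant peaks (14.9%) held a WT midpoint, and 260 of these held exactly 1.

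In 10 kb windows, 383 of 1212 (31.6%) held the midpoints of both a WT and a mutant peak, 559 (46.1%) held mutant peaks only, 44 (3.63%) held WT peaks only and 226 (18.6%) held neither. Windows with a WT peak had a mutant peak in 89.7% of cases and windows without one in 71.2%. No window held more than 5 WT or 7 mutant peaks.

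WT peaks lay close to mutant peaks. The median distance from the edge of a WT peak to the nearest mutant peak was 179 bp, with an upper quartile of 1369 bp, and 273 of 584 WT peaks (46.7%, interval 42.7% to 50.8%) overlapped a mutant peak. Joined mutant peaks span 6.09% of all chromosome positions. Within 1000 bp of a mutant peak lay 404 WT peaks (69.2%), whereas 34.3% of positions did. Since wide peaks meet others more readily, midpoints were also compared with positions. The midpoint of 30.8% of WT peaks lay inside a mutant peak, 5.06 times the share of positions, and 67.1% lay within 1000 bp, 1.96 times the share. The ratio fell to 1.16 at 5000 bp, where 91.6% of WT midpoints and 79.1% of positions were included.

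The reverse distances were longer, as the WT list has fewer peaks. A mutant peak lay a median of 5088 bp from the nearest WT peak, with quartiles of 966 and 12900 bp, and 1080 mutant peaks (50.5%) were more than 5000 bp away. Of mutant midpoints 10.9% lay inside a WT peak, where 2.48% of positions lie, a ratio of 4.37. Within 1000 bp lay 23.3% of mutant midpoints and 10.6% of positions. With only the 584 mutant peaks of highest −log10 q, 17.5% of WT peaks overlapped a mutant peak and 29.8% lay within 1000 bp of one. This reduced list covers 315564 bp, against 721068 bp for the whole mutant list. The share of positions near it was not computed, and the shares of positions given for the whole list do not apply to it. In the whole lists, a WT peak was nearer to a mutant peak than to another WT peak in 467 of 584 cases (80.0%). A mutant peak was nearer to a WT peak in 639 of 2137 (29.9%). The mutant list has 3.66 times as many peaks, which by itself makes the nearest peak more often a mutant one. The shares expected from the peak numbers alone were not computed, so these 2 shares do not show closeness between the lists.

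**Figure D4:**
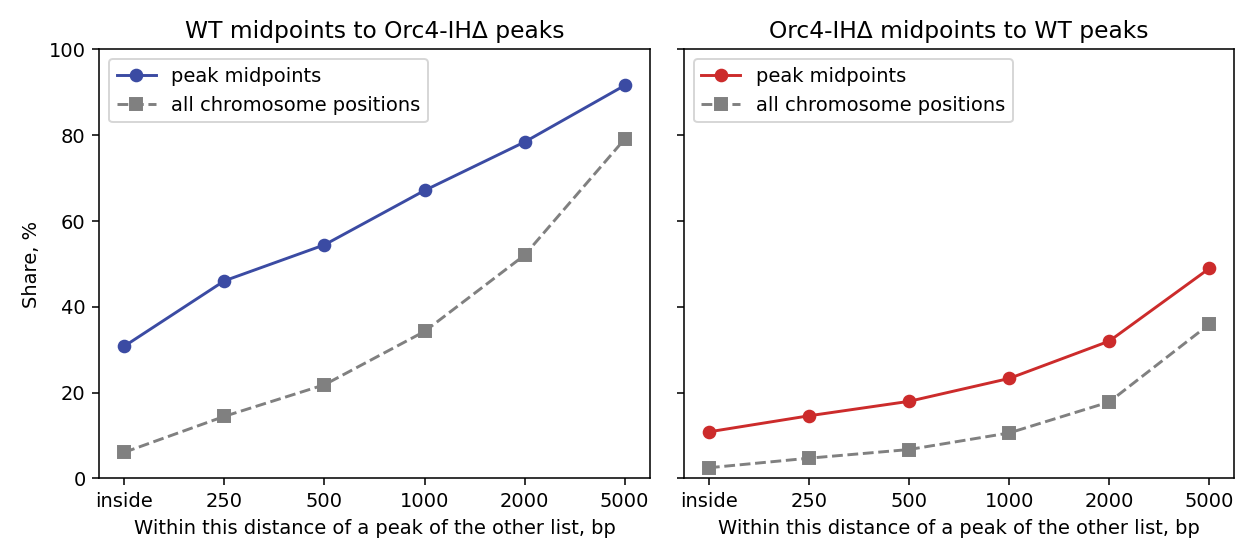
Share of peak midpoints (solid line, circles) and of all chromosome positions (dashed line, squares) inside or within a given distance in bp of a peak of the other list, for WT midpoints (left) and Orc4-IHΔ midpoints (right); the distances are evenly spaced categories. WT midpoints stand at 30.8% inside mutant peaks against 6.09% of positions, and the curves approach each other at 5000 bp (91.6% and 79.1%).

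The class of WT peaks that just missed a mutant peak was weak. The 36 WT peaks at 1 to 250 bp from a mutant peak, 39 at over 250 to 500 bp and 56 at over 500 to 1000 bp had median fold enrichments of 2.21, 2.18 and 2.21, against 3.34 for the 273 that overlapped one. Only 9 of these 131 near misses (2, 1 and 6) reached a value of 6. Near misses were also narrower, with median widths of 247, 243 and 222.5 bp, against 538 bp for the overlapping peaks. A wide peak close to a mutant peak overlaps it more readily, and the part of width in these fold enrichments was not tested. Farther out the values rose again, to medians of 3.26 at over 1000 to 2000 bp, 2.76 at over 2000 to 5000 bp and 3.03 beyond 5000 bp. In these 3 classes 9, 15 and 13 peaks reached a value of 6. Near misses fell on either side, with the mutant peak at lower coordinates in 21 and at higher coordinates in 15 of the 36 closest.

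The classes also differed in open chromatin. Of the WT peaks that overlapped a mutant peak, 60.4% lay at an open region, against 30.6% at 1 to 250 bp, 10.3% at over 250 to 500 bp and 12.5% at over 500 to 1000 bp. It was 16.9% at over 1000 to 2000 bp, 10.4% at over 2000 to 5000 bp and 31.3% (15 of 48 peaks) beyond 5000 bp. Over the whole lists, 37.7% of WT and 69.5% of mutant peaks overlapped an open region, and 25.0% and 67.0% had their midpoint in one, where 13.1% of positions lie. WT peaks that overlapped a mutant peak were also wider (median 538 bp, against 223 to 339 bp in the other classes), and the part of width in these shares was not tested.

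Among strong peaks, overlap was more frequent. Of the 128 WT peaks with a fold enrichment of 6 or more, 82 (64.1%, interval 55.5% to 71.9%) overlapped a mutant peak, against 191 of the other 456 (41.9%). The strong peaks were wider (median 898 bp, against 282 bp). The 46 that met none lay a median of 2740 bp from the nearest mutant peak. In the mutant list 23 of the 49 strong peaks (46.9%, interval 33.7% to 60.6%) overlapped a WT peak, against 279 of the other 2088 (13.4%). Strong WT peaks stood apart from other WT peaks, with a median of 8413 bp to the nearest, against 4009 bp for weaker ones. In the mutant the order was the opposite, 1170 bp against 1501 bp.

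The WT peaks farthest from any mutant peak were not all weak. The farthest, on chromosome VIII between 147887 and 148098 (fold enrichment 2.58), lies 22424 bp from the nearest mutant peak, inside one of the long stretches described above. The second, on chromosome XI between 558595 and 558757 (2.3), is 21790 bp away and is the lone WT peak of the longest mutant-free stretch. The third lies near the end of chromosome X, between 745150 and 745518 (3.04), at 19595 bp. The last 2 of these 5 are strong, on chromosome XIII between 370667 and 371565 (7.69, at 16291 bp) and on chromosome X between 683479 and 684300 (7.73, at 15875 bp).

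The mutant peaks farthest from a WT peak lay in the middle of long WT gaps, as their selection by distance implies. A pair on chromosome XV, between 967909 and 968456 (fold enrichment 4.20) and between 966269 and 966423 (2.77), is 59024 and 57384 bp from the nearest WT peak. A pair on chromosome XVI, between 227540 and 228198 (4.84) and between 225828 and 226018 (2.81), is 52473 and 51882 bp away. The fifth, on chromosome X between 280696 and 280963 (4.21), is 51573 bp away. All but the weaker peak on chromosome XVI overlapped an open region.

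The share of shared peaks varied between chromosomes. On chromosome VIII 6 of 24 WT peaks (25.0%) overlapped a mutant peak, and the median distance was 1663 bp, the longest of the 16 chromosomes. On chromosome III 12 of 19 did (63.2%), with a median distance of 0. The counts per chromosome are small. In the mutant, the share that met a WT peak ranged from 6.38% on chromosome VIII to 24.1% on chromosome XI. Within 20 kb of the chromosome ends, which make up 5.32% of the extent, lay 43 WT peaks (7.36%) with a median fold enrichment of 5.38 and 113 mutant peaks (5.29%) with a median of 3.15.

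In 230 cases 1 WT and 1 mutant peak overlapped each other and nothing else. Their midpoints were offset by a median of 130 bp (quartiles 47.3 and 252.5 bp), and 97 pairs were within 100 bp while 40 were more than 300 bp apart. The offset had no preferred side, with the mutant midpoint at lower coordinates in 117 pairs and higher in 112. The mutant peak lay wholly inside the WT peak in 79 pairs and the WT peak inside the mutant one in 41. In the remaining 110 the peaks were staggered (59 to the left and 51 to the right). The overlap was a median of 37.3% of the joint span. WT peaks were the wider ones in 141 pairs, with median widths of 483 and 309.5 bp.

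Fold enrichments within these pairs had similar medians in both lists, 3.21 in WT and 3.28 in the mutant. The median log2 ratio of mutant to WT was −0.07 (quartiles −0.65 and 0.48, range −2.27 to 1.93). The mutant value was the higher in 107 pairs and the WT value in 123. In the 59 pairs with a WT value of 6 or more, the median was 8.10 in WT and 3.41 in the mutant, the mutant value was lower in 55, and 11 mutant values reached 6. In the 101 pairs with a WT value under 3, the medians were 2.32 and 2.99, and the mutant value was higher in 79. These pairs were chosen by the WT value itself, so the order is a description. Chosen by the mutant value, 19 pairs reached 6 in the mutant, with a median of 7.98 there and 8.58 in WT, and the WT value was lower in 12.

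**Figure D5:**
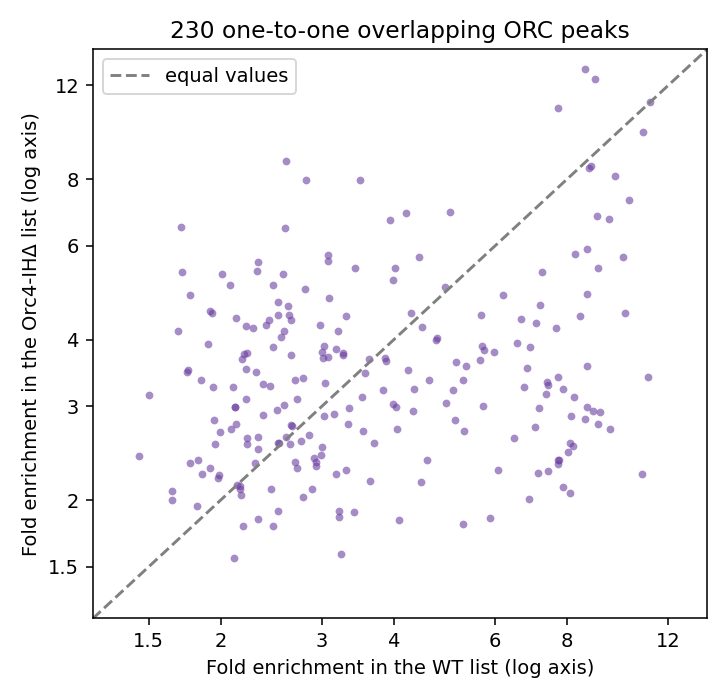
Fold enrichment in the WT list (x) and in the Orc4-IHΔ list (y), both on log axes, for 230 pairs of ORC peaks that overlap each other and no other peak; each point is a pair and the dashed line marks equal values. Of the 59 pairs with a WT value of 6 or more, 55 lie below the line.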

How the data were processed

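ORC ChIP-seq lists of WT and Orc4-IHΔ cells were analysed, each combining 2 libraries, beside 1 ATAC-seq list per strain. Per the labels, reads were aligned to sacCer2 and the submitters' processing notes name Bowtie 1.2.2, Picard, SAMtools 1.3.1, bedtools 2.27.1 and MACS2 2.1.1.20160309 for ChIP-seq, and Bowtie2 2.3.4.1 for ATAC-seq. The deposited values are a fold enrichment (linear ratio), −log10 p and −log10 q, by the authors' peak caller, and a deposited score, which was not used. ATAC-seq lists were merged, since their labels and names give opposite strains.

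Positions are sacCer2, counted from 1. Lines sharing a name (29 WT and 77 mutant peaks, with 76 to 455 bp between pieces) were joined. Chromosome extent is the largest end in any list and can differ from the true length. Peaks off the nuclear chromosomes were left out of distances. Genes, origins and sequences are not reported, because no sacCer2 annotation or genome was used here.

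Named regions are the 5 strongest, widest and most isolated peaks of each list, the 5 longest stretches without a peak, the 3 WT gaps with most mutant peaks and the extreme chromosomes. Members, lists and classes were chosen with earlier results of these data known. No test was run, as each strain has 1 list. Wilson intervals at the 95% level cover counting error only and treat the peaks of a list as independent, which they are not. They give no precision for a difference between the strains. Depth per library is unknown. The code was tested on simulated data. Alternatives were unjoined lines, peaks at or above the median −log10 q, equal numbers, chromosome ends or peaks under 100 bp left out, merging within 100 bp, midpoints and a 50% overlap. Computation used matplotlib 3.10.9, scipy 1.17.1, pandas 2.3.3 and numpy 2.4.6 under Python 3.11.15.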

Additional observations from a re-analysis of the deposited data

How the results depend on the processing

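Of 93 alternative values over 17 results, 66 stayed within 1.5 times the reported value, or within its Wilson interval for shares, and 27 moved. None of the values moved when lines were left unjoined, chromosome ends or peaks under 100 bp were left out, or peaks within 100 bp were merged. No paired analysis was possible because each strain has 1 list. A distance of 0 between midpoints has no counterpart to an overlap and was not run.

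Peaks at or above the median −log10 q of their list numbered 292 in WT and 1070 in the mutant, by construction. Their median widths were 696.5 bp in WT (329.5 bp in the mutant), the mutant covered 472821 bp, median gaps were 34682 and 5858 bp and the longest stretches 185878 and 109014 bp. WT peaks overlapped a mutant peak in 36.0% and lay within 1000 bp in 51.0%. The share of chromosome positions near these shorter lists was not computed. Mutant peaks lay a median of 9642 bp from WT peaks, and 94 pairs remained. Of WT gaps, 81.5% held a mutant peak, and 45.9% of WT and 77.9% of mutant peaks lay at open regions.

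With the mutant list reduced to its 584 peaks of highest −log10 q, it covered 315564 bp, with a median width of 418.5 bp, a median gap of 10514.5 bp, close to the 11392 bp of WT, and a longest stretch of 223718 bp. WT peaks then overlapped a mutant peak in 17.5% and lay within 1000 bp in 29.8%, 90 pairs were left, 46.1% of WT gaps held a mutant peak and 84.1% of the kept mutant peaks lay at open regions. This choice changes the number and the strength of the mutant peaks at once. Which of them goes with the moved values was not tested. The share of chromosome positions near the reduced list was not computed. The depth behind the lists is unknown.

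Midpoint to midpoint, 63.7% of WT peaks lay within 1000 bp of a mutant peak. With an overlap of at least 50% of both peaks, 96 pairs were counted.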

Other observations

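A few ORC peaks lay outside the nuclear chromosomes. On the 2-micron plasmid, a multicopy circle that replicates in the yeast nucleus, the WT list had 2 peaks with fold enrichments of 1.2 and 1.26. The mutant list had 3, at 1.69, 1.43 and 1.79, and 1 of them (positions 4252 to 4567) overlaps the WT peak between 4284 and 4748. Mitochondrial DNA carried 1 WT peak (fold enrichment 1.33, between 59642 and 59969) and no mutant peak. All 6 values are below the lower quartiles of the nuclear peaks, 2.12 in WT and 2.53 in the mutant.

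The share of numbered calls that reached the combined lists varied by chromosome. Between the first and last listed number, it ranged from 45.9% on chromosome V to 80.0% on chromosome I in WT and from 63.9% on chromosome XIII to 76.4% on chromosome XVI in the mutant. Missing numbers fell in 240 of 568 WT gaps (42.3%) and in 625 of 2121 mutant gaps (29.5%). In gaps from 20 to under 50 kb they stood at 3.69 per 100 kb in WT (156 gaps) and 7.78 in the mutant (68 gaps). Over all gap classes of 2000 bp or more they ranged from 3.20 to 6.76 in WT and from 7.78 to 9.95 in the mutant.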
